A study of Mus musculus with 24 samples.

Results

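Polypeptide GalNAc transferases are Golgi enzymes that attach the first sugar of a mucin-type O-glycan, N-acetylgalactosamine (GalNAc), to serine or threonine residues of proteins passing through the secretory pathway. Levels of 9 of their genes, Galnt10, Galnt1, Galnt2, Galnt3, Galnt4, Galnt6, Galnt7, Galnt11 and Galnt12, were measured by RNA sequencing in P815 cells, a mouse mastocytoma line. The 9 genes were taken by name from a table of 55385 gene features. Galnt10 was chosen by its FPKM values with and without estradiol: it was higher with estradiol in every same-numbered pair of libraries. Its estradiol values below are a description and carry no test. A gene was tested where it reached 1 FPKM (fragments per kilobase of transcript, scaled to library depth) in at least 3 of 24 libraries. This held for 12183 genes and for 8 of the 9 members, all but Galnt12.

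The 24 libraries fell into 8 groups of 3. NC cells carried a negative control vector and SH cells a vector for a short hairpin RNA against Esr1, the gene of estrogen receptor alpha. ICI and Tamo cells were treated for 24 hours with ICI-182780 or with tamoxifen, both of which bind estrogen receptors and block estradiol, and these cells are not labelled as carrying a vector. NC_E2, SH_E2, ICI_E2 and Tamo_E2 are the matching groups with beta-estradiol (E2) for 24 hours. The labels for NC and SH give no treatment time, no dose is given for any agent, and no vehicle group is named. All cells grew in medium with fetal bovine serum, and the labels do not say that hormones had been removed from it. The libraries of a group are not stated to come from separate cultures or transfections, so p-values measure the spread between these libraries, which may be technical.

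Library totals ran from 42059008 to 68793278 estimated counts, with a median of 54232989. Esr1 itself was low in every library, between 0.161 and 0.52 FPKM, and was not tested. It stood at 0.342 ± 0.135 FPKM in NC, 0.278 ± 0.062 in SH, 0.314 ± 0.0781 in NC_E2 and 0.215 ± 0.0369 in SH_E2 (SD, n = 3 each), and the SH and NC ranges overlapped in both conditions. Esr1 RNA did not separate the SH from the NC libraries at these levels. The mast cell genes Kit (98.3 to 175 FPKM), Cpa3 (134 to 586 FPKM) and Gata2 (138 to 261 FPKM) were abundant throughout, while Fcer1a and Ms4a2, subunits of the high-affinity IgE receptor, did not exceed 0.937 and 1.2 FPKM.

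Members of the family differ in the acceptor they prefer. GALNT1, GALNT2, GALNT3, GALNT6 and GALNT11 act on peptides that carry no sugar yet and start the glycan. GALNT7 and GALNT10 prefer peptides that already carry GalNAc and fill in neighbouring sites, and GALNT4 and GALNT12 are also known to act on partly glycosylated substrates. The core 1 synthase, encoded by C1galt1, then adds galactose to GalNAc, and sialyltransferases often cap the chain. Mast cells carry O-glycosylated surface proteins such as CD34 and CD43.

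Galnt10 (ENSMUSG00000020520) lies on the plus strand of chromosome 11, from 57645442 to 57787514 in GRCm38. The GENCODE annotation gives it a coding transcript of 12 exons over the whole gene and a shorter one of 3 exons that ends at 57726911. Galnt7 (ENSMUSG00000031608) lies on the minus strand of chromosome 8, from 57523828 to 57653032, with 12 exons. The 250 bases before their RefSeq start sites (GRCm38.p6) are shown because these are the 2 members that passed the test in SH against NC. The stretches are chr11:57645192-57645441 on the plus strand and chr8:57653056-57653305 on the minus strand, 5′ to 3′, with any GGGCGG on either strand in capitals.
Galnt10: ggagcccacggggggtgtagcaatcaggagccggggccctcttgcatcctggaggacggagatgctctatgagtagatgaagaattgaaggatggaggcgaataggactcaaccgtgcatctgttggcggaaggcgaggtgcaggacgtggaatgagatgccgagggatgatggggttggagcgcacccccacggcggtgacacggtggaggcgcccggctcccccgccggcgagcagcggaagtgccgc
Galnt7: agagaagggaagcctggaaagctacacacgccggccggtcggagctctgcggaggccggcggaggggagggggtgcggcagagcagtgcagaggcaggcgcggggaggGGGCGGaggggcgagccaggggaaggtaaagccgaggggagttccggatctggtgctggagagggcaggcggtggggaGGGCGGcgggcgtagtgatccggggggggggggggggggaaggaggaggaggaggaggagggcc

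The estrogen response element, here GGTCA followed after 3 bases by its reverse complement, was searched on both strands in these stretches and had no match in either, and 0.0639% of 32851 RefSeq promoter windows of the same length held one. GGTCA alone, which lies within that element, and the AP-1 element TGANTCA also had no match in the Galnt10 or Galnt7 window. GGTCA occurred in 35.2% and TGANTCA in 6.75% of all windows. GGGCGG, the GC box, matched at 142 and 64 bases before the Galnt7 start and nowhere in the Galnt10 window, against 32.7% of all windows with a match. GC content was 64.4% for Galnt10 and 73.6% for Galnt7, and the median window had 52.4%. Windows were at hand for 5 of the 9 members. In the other 3 members GGTCA matched 1 of the 2 windows of Galnt6 and 1 of the 2 of Galnt11, and not the Galnt3 window. A match describes letters only and was not tied to binding.

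Galnt1, a broadly acting initiating enzyme, had the highest level of the family, with a mean of 40.3 FPKM over 24 libraries and a range from 35.0 to 46.9 FPKM. Galnt6 followed at 27.1 FPKM (21.9 to 34.4) and Galnt2 at 12.4 FPKM (10.5 to 15.0). Galnt3, closely related to Galnt6 and known for glycosylating the phosphate hormone FGF23, averaged 11.2 FPKM but spread from 5.52 to 28.6 FPKM. Galnt7 averaged 8.92 FPKM (5.81 to 14.7) and Galnt10 8.25 FPKM (4.88 to 12.6). Galnt11 averaged 4.46 FPKM (3.87 to 5.11) and Galnt4 1.42 FPKM (0.983 to 2.05). Galnt12 had 0 to 12 counts per library and was the only member outside the test.

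The order of levels was partly fixed. Galnt1 exceeded Galnt6, and Galnt6 exceeded Galnt2, in 24 of 24 libraries, and so did Galnt10 over Galnt11, Galnt11 over Galnt4 and Galnt4 over Galnt12. The middle of the order was not fixed: Galnt2 exceeded Galnt3 in 16 libraries, Galnt3 exceeded Galnt7 in 12, and Galnt7 exceeded Galnt10 in 14. Galnt10 and Galnt7 stood in a different order without and with E2. Galnt10 was the higher in 0 of 3 NC, 0 of 3 ICI and 1 of 3 Tamo libraries without E2, and in 3 of 3 NC_E2, 2 of 3 ICI_E2 and 3 of 3 Tamo_E2 libraries. In the hairpin cells Galnt7 stayed the higher in all 3 SH libraries and in 2 of the 3 SH_E2 libraries.

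**Figure D1:**
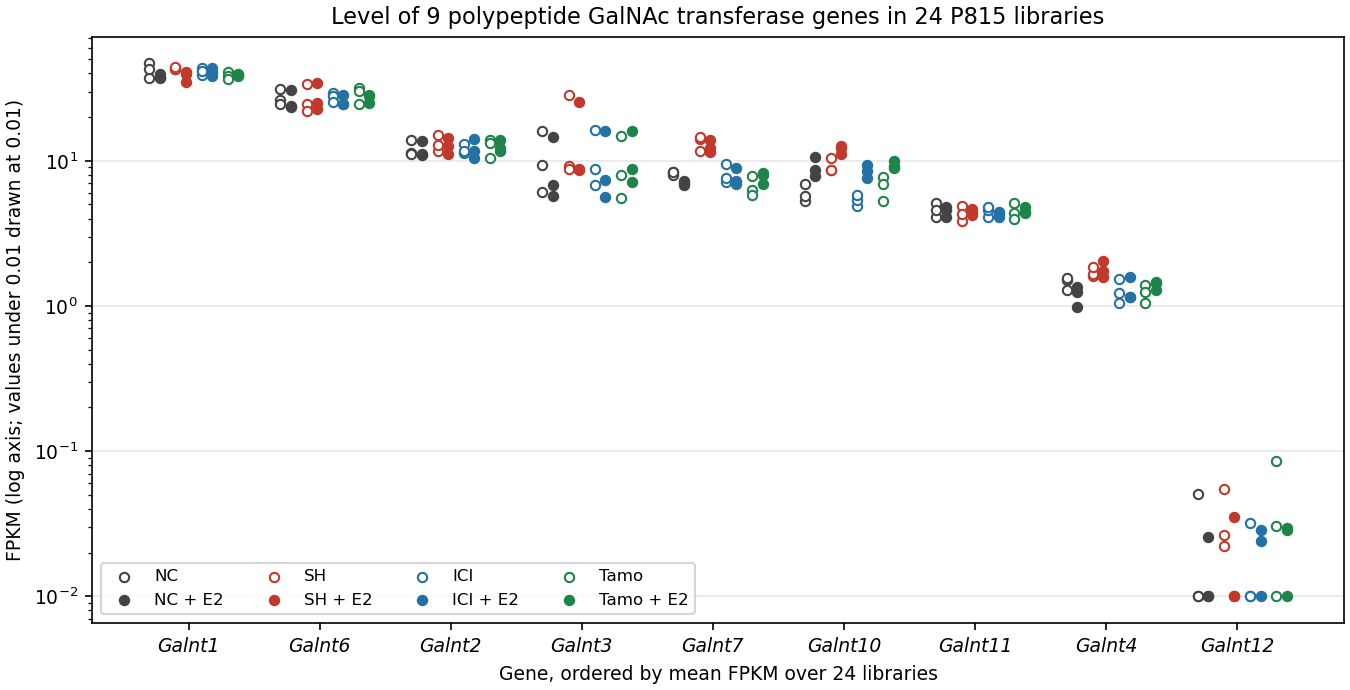
FPKM of the 9 members in each of the 24 libraries on a log axis, coloured by arm, with open points without E2 and filled points with E2; points under 0.01 FPKM are drawn at 0.01. Galnt1 and Galnt6 lie at the top in every library, Galnt2, Galnt3, Galnt7 and Galnt10 share the middle, and Galnt12 reaches at most 0.0856 FPKM.

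Of 10 further GALNT genes in the table, 1 was tested, Galnt14, at 1.04 to 3.56 FPKM. The other 9 did not exceed 0.121 FPKM. Summed over all 19 GALNT genes, the family reached 97.6 to 148 FPKM per library, of which Galnt1 made up 34.9% on average. Galnt10 made up 5.28% ± 1.14 of this sum in NC and 8.28% ± 0.539 in NC_E2 (SD, n = 3 each). Its share was 7.17% in SH and 9.55% in SH_E2, 4.77% in ICI and 7.57% in ICI_E2, and 6.08% in Tamo and 8.16% in Tamo_E2. Galnt7 made up 7.21% ± 0.636 in NC and 10.5% ± 2.35 in SH, while its share was 6.48% in NC_E2 and 10.1% in SH_E2.

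E2 was compared with no E2 within each arm, the question being which genes of the family respond to the hormone. Galnt10 was higher with E2 in all 4 arms, and this is the pattern it was chosen for. In NC it stood at 5.27, 5.69 and 6.95 FPKM without E2 and at 10.6, 7.88 and 8.65 FPKM with E2, in replicates 1, 2 and 3. In ICI it stood at 4.88, 5.36 and 5.82 FPKM without and 9.32, 7.64 and 8.46 FPKM with E2. In Tamo it stood at 5.32, 7.71 and 6.91 FPKM without and 10.0, 8.88 and 9.16 FPKM with E2. In each of these arms the lowest E2 library lay above the highest library without E2, and the smallest such gap, in NC, separated 6.95 from 7.88 FPKM. The SH arm began higher, at 8.61, 8.67 and 10.4 FPKM, and reached 12.6, 11.1 and 12.2 FPKM with E2, again without overlap. The SH libraries without E2 thus lay within the range of the NC_E2 libraries, 7.88 to 10.6 FPKM.

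**Figure D2:**
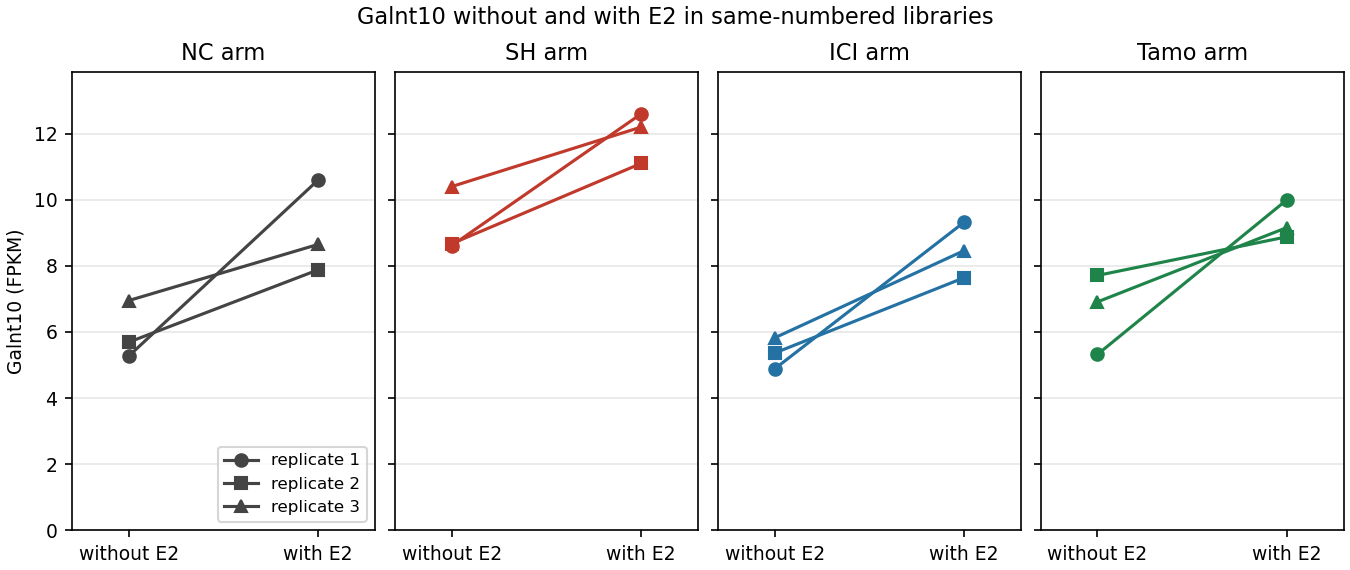
Galnt10 level in FPKM without and with E2 in each arm, with lines joining libraries of the same replicate number. All 12 lines go up, those of replicate 1 by 1.46 to 2.01 times and those of replicates 2 and 3 by 1.15 to 1.45 times, and the SH arm starts from 8.61 to 10.4 FPKM.

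The ratio of the E2 library to its same-numbered partner ran from 1.15 to 2.01, with a median of 1.41 over 12 pairs. Averaged over the 4 arms, the fitted difference was 0.53 ± 0.07 on the log2 scale (SE), or 1.45-fold. By arm it was 0.59 ± 0.14 in NC, 0.38 ± 0.14 in SH, 0.68 ± 0.14 in ICI and 0.49 ± 0.14 in Tamo. Galnt10 was thus higher with E2 in cells given ICI-182780 or tamoxifen as well, and the differences between arms were not tested. Replicate 1 gave larger ratios, 1.46 to 2.01 over the 4 arms, than replicate 2 (1.15 to 1.43) or replicate 3 (1.17 to 1.45). With the replicate 1 libraries left out, an alternative chosen after seeing the data, the log2 difference was 0.38.

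Being higher in 12 of 12 pairs was found for 26 of the 12183 tested genes (0.213%), and in 11 of 12 pairs for 61 genes. Groups without overlap in all 4 arms, higher with E2, were found for 2 genes (0.0164%). Galnt10 was inside this bound with a smallest pair ratio of 1.15, and the next member by number of higher pairs, Galnt4, was higher in 7 of 12 with a median ratio of 1.05. Because the contrast chose Galnt10, nothing is read from these shares.

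None of the other 7 tested members was called with E2, in any arm or over the 4 arms, at an adjusted p under 0.05 by edgeR's quasi-likelihood test with Benjamini-Hochberg adjustment over all tested genes. None had an unadjusted p under 0.05 in those contrasts either, and DESeq2 called none. Calls were also rare over all genes, at 0.0% in each single arm and 0.0575% over the 4 arms (0.0492% higher). The log2 differences over the 4 arms were near 0 with narrow intervals for most members. Among the initiating enzymes, Galnt1 gave -0.08 (95% interval -0.17 to 0.01), Galnt6 -0.05 (-0.21 to 0.11), Galnt2 -0.01 (-0.16 to 0.13) and Galnt11 -0.01 (-0.13 to 0.12). Galnt7, which shares the acceptor preference of Galnt10, gave -0.04 (-0.19 to 0.11) and was higher with E2 in 4 of 12 pairs. Galnt4 gave 0.0 (-0.19 to 0.19). Galnt3 gave -0.07 with the widest interval of the 7, from -0.67 to 0.53.

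Within single arms, Galnt1 and Galnt7 had groups without overlap that did not pass the test. Galnt1 stood at 42.8, 43.1 and 44.2 FPKM in SH and lower, at 40.7, 35.0 and 39.6 FPKM, in SH_E2, a log2 difference of -0.17 ± 0.08 (unadjusted p = 0.0557, adjusted p = 1.0, edgeR). Groups without overlap and lower with E2 made up 1.9% of tested genes in the SH arm. In NC the Galnt7 levels of 8.32, 7.96 and 8.34 FPKM lay above the NC_E2 levels of 7.03, 7.23 and 6.76 FPKM without overlap, at -0.23 ± 0.14 on the log2 scale. Groups without overlap and lower with E2 made up 3.38% of tested genes in NC. In Tamo 13.5% of tested genes were higher with E2 in 3 of 3 pairs, with Galnt3, Galnt4 and Galnt7 among them. Galnt7 gave a log2 difference of 0.22 ± 0.14 in Tamo. The difference between these 2 effects was 0.45 ± 0.20, with an unadjusted p of 0.0387 and an adjusted p of 1.0 by edgeR's quasi-likelihood test. No member other than Galnt10, which was not tested there, had a called difference of E2 effects between SH, ICI or Tamo and NC, by edgeR or DESeq2, and this was the only unadjusted p under 0.05 among them. Over all tested genes edgeR called 0.0% for each of these differences, so the lack of calls is no result about the members.

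The hairpin cells were compared with the vector control cells to ask how the family differs between the 2 vectors. Galnt7 and Galnt10 were higher in SH, and a link to acceptor preference was not tested. Galnt7 stood at 11.6, 14.2 and 14.7 FPKM in SH and at 11.5, 12.2 and 14.0 FPKM in SH_E2, above all 6 NC and NC_E2 libraries, which held 6.76 to 8.34 FPKM. Over both E2 conditions it rose by 0.73 ± 0.10 on the log2 scale (95% interval 0.52 to 0.94, 1.66-fold, adjusted p = 2.72e-05, edgeR) and was higher in 6 of 6 same-numbered pairs. Galnt10 rose by 0.46 ± 0.10 (0.25 to 0.67, 1.38-fold, adjusted p = 0.00254, edgeR), also in 6 of 6 pairs, and its groups did not overlap within either E2 condition. The pairs with E2 among these match libraries by number only, as SH_E2 and NC_E2 were not taken as paired. In this contrast 21.4% of all tested genes were higher in 6 of 6 pairs, so the pair counts single out neither gene. With replicates 2 and 3 alone the values were 0.81 for Galnt7 (adjusted p = 0.000638) and 0.49 for Galnt10 (adjusted p = 0.00594).

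Taken by E2 condition, Galnt7 rose by 0.66 ± 0.14 without E2 (adjusted p = 0.00474, edgeR) and by 0.79 ± 0.14 with E2 (adjusted p = 0.00103, edgeR). Galnt10 rose by 0.57 ± 0.14 without E2 (adjusted p = 0.0143, edgeR). This call was lost when only the 2 groups entered the fit (adjusted p = 0.099) and when NC replicate 1, NC replicate 2 or SH replicate 3 was left out. With E2 the Galnt10 difference was 0.35 ± 0.14 with an adjusted p of 0.148 (edgeR), although the 3 SH_E2 libraries lay above the 3 NC_E2 libraries. The difference between the values without and with E2 is that between the Galnt10 E2 effects in SH and NC, -0.22 ± 0.20. It was not tested, because Galnt10 was chosen by its E2 values. Galnt10 RNA was highest of the 8 groups in cells with both the hairpin and E2, at 12.0 ± 0.743 FPKM, and lowest in ICI, at 5.35 ± 0.47 FPKM (SD, n = 3).

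Galnt4, which acts on plain and partly glycosylated peptides, stood at 1.61, 1.65 and 1.85 FPKM in SH against 1.52, 1.55 and 1.29 FPKM in NC. With E2 it stood at 1.73, 1.57 and 2.05 FPKM in SH_E2 against 1.24, 1.35 and 0.983 FPKM in NC_E2. All SH libraries lay above the NC libraries of the same condition, and the difference over both conditions, 0.35 ± 0.12, missed the threshold (adjusted p = 0.0519, edgeR). It passed with the replicate number as a block (0.36, adjusted p = 0.0261) and by DESeq2 (0.35, adjusted p = 0.0222). With E2 the difference was 0.53 (adjusted p = 0.0668, edgeR), with adjusted p-values of 0.0284 with the block and 0.023 by DESeq2. Galnt4 is a single-exon gene inside Poc1b on the same strand. Poc1b (2.33 to 6.07 FPKM) gave -0.14 ± 0.20 in the same contrast, and the sources used here do not say how reads were divided between the 2 genes.

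Galnt3 gave 0.55 ± 0.41 over both conditions (95% interval -0.30 to 1.40, adjusted p = 0.393, edgeR). Its replicate 1 libraries were far above the others, at 28.6 FPKM in SH and 25.4 in SH_E2 against 16.1 in NC and 14.6 in NC_E2, while replicates 2 and 3 held 8.67 to 9.16 FPKM in the SH groups and 5.74 to 9.37 FPKM in the NC groups. Same-numbered SH and NC libraries without E2 deviated together. With the replicate number as a block the difference without E2 was 0.39 and passed the test (adjusted p = 0.0409, edgeR), where it was 0.50 (adjusted p = 0.71) without the block. The blocked difference also passed with E2 (0.54, adjusted p = 0.00584, edgeR) and over both conditions (0.47, adjusted p = 0.00069, edgeR). With replicates 2 and 3 alone the difference was 0.16 without E2 (adjusted p = 0.805, edgeR) and 0.29 over both conditions (adjusted p = 0.28, edgeR). Galnt3 was higher in SH in 5 of 6 same-numbered pairs. In replicate 2 without E2 the SH library, at 9.16 FPKM, lay below the NC library, at 9.37 FPKM. The remaining initiating enzymes did not pass the test, with log2 differences over both conditions of -0.03 for Galnt1, -0.03 for Galnt6, 0.05 for Galnt2 and -0.10 for Galnt11.

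**Figure D3:**
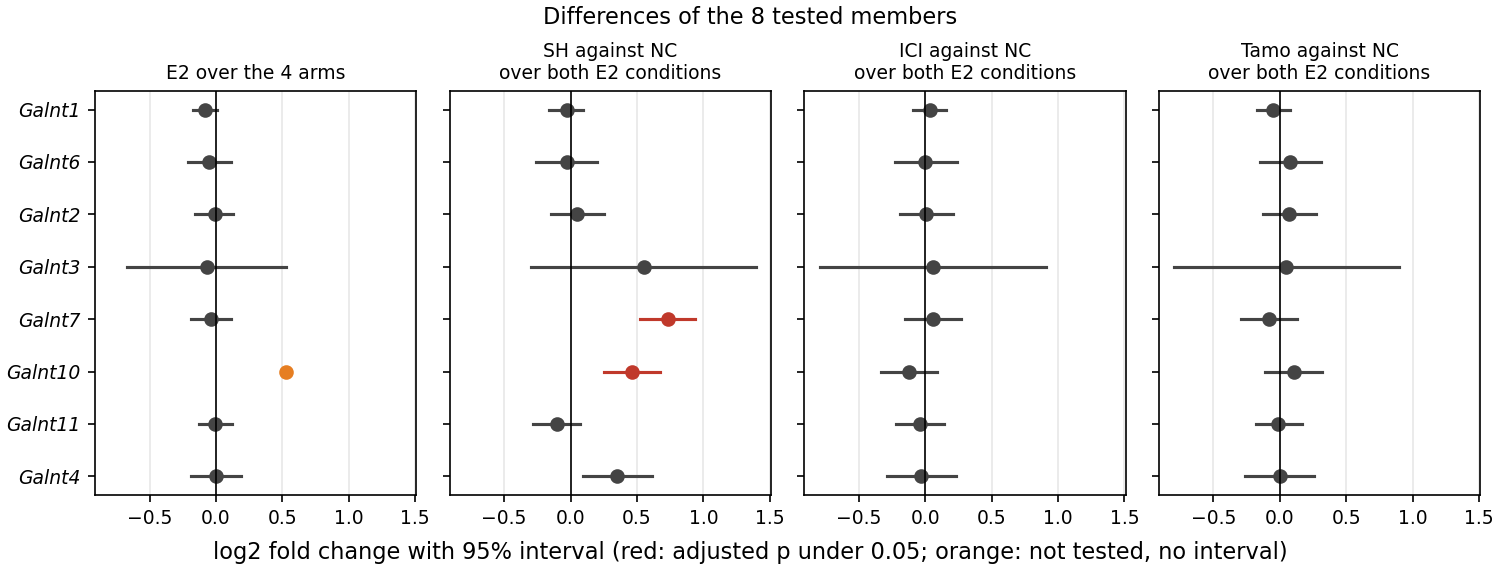
Log2 fold change with its 95% interval for the 8 tested members, for E2 over the 4 arms and for SH, ICI and Tamo against NC over both E2 conditions; red marks an adjusted p under 0.05 and orange the Galnt10 E2 value, which was not tested and has no interval. Galnt7 (0.73) and Galnt10 (0.46) stand to the right in SH, and the wide bars belong to Galnt3.

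Many genes differed between SH and NC. Over both E2 conditions 20.7% of tested genes were called, 10.6% as higher and 10.0% as lower, so 2 of 8 members is close to the background share and is no result about the family as a whole. Without E2 the called share was 9.07% (4.92% higher and 4.15% lower), beside 2 of 8 members, and with E2 it was 9.59% (5.3% higher and 4.28% lower), beside 1 of 8. Groups without overlap and higher in SH made up 17.2% of tested genes without E2, 16.1% with E2 and 10.8% in both, and Galnt7, Galnt10 and Galnt4 were among them. Markers of other cells were higher in the SH libraries: 3 of 15 reached 1 FPKM in any library, and their summed level was 8.82 to 13.6 FPKM in NC, 8.62 to 10.6 in NC_E2, 14.5 to 27.1 in SH and 14.6 to 25.6 in SH_E2. Nearly all of this was Pdgfrb, a growth factor receptor of mesenchymal cells (7.15 to 25.2 FPKM), which rose by 0.81 ± 0.19 (adjusted p = 0.00371, edgeR) and lost its call at 0.48 with replicates 2 and 3 alone. Ms4a1, Ly6g and Ncr1, which mark B cells, neutrophils and natural killer cells, had 0 counts in every library. The summed mast cell markers were 628 to 817 FPKM in NC, 644 to 826 in NC_E2, 892 to 1020 in SH and 921 to 1050 in SH_E2, mostly through Cpa3. Of 9 tested mast cell markers 1 was called higher, Cpa3 (1.18 ± 0.19, adjusted p = 0.000166, edgeR), and 4 lower. The log2 difference was -0.72 ± 0.12 for the granule proteoglycan gene Srgn, -0.52 ± 0.18 for the chymase gene Cma1, and -2.60 ± 0.34 and -3.37 ± 0.50 for the related tryptase genes Tpsab1 and Tpsb2 (adjusted p = 0.000166, 0.0469, 1.15e-05 and 4.97e-05, edgeR). Tpsb2 was near the floor, at 0.443 to 1.18 FPKM in the NC groups and 0.0001 to 0.122 FPKM in the SH groups. It reached 1 FPKM only outside SH, and its smallest value among the alternatives was -0.74, so nothing is read from its test. The part of these markers in the Galnt7 and Galnt10 differences was not tested, and fewer cells of a type cannot be told apart from less RNA per cell in bulk samples.

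The receptor blockers were compared with NC in the same way. No member was called for ICI or Tamo against NC without E2, with E2 or over both conditions, or for ICI against Tamo over both conditions (8 members tested each time, edgeR). Over all tested genes 0.00821% were called for ICI against NC over both conditions and 0.0% for Tamo against NC and for ICI against Tamo. Against NC the share without E2 was 0.00821% for ICI and 0.00821% for Tamo, and with E2 it was 0.0% for each. Galnt10 gave -0.12 (95% interval -0.33 to 0.09) for ICI and 0.11 (-0.11 to 0.32) for Tamo against NC over both conditions. It was lower in ICI than in Tamo in 6 of 6 same-numbered pairs, at -0.23 ± 0.10 with an unadjusted p of 0.0363 and an adjusted p of 1.0 (edgeR). Galnt7 without E2 stood at 6.25, 7.89 and 5.81 FPKM in Tamo against 8.32, 7.96 and 8.34 in NC, without overlap, and gave -0.30 ± 0.14 (unadjusted p = 0.0487, adjusted p = 1.0, edgeR). Those were the 2 values with an unadjusted p under 0.05 among the comparisons of ICI or Tamo with NC and with each other, and DESeq2 called no member there. Groups without overlap and lower in Tamo than in NC, both without E2, made up 3.38% of tested genes. ICI and Tamo lack a labelled vector, so any effect of the vector cannot be told apart from that of the blockers in these comparisons.

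Galnt3, Galnt6 and Galnt2 were ordered by replicate number. Replicate 1 held the highest of the 3 libraries for each of them in all 8 groups, a property of 8.59% of tested genes, with 7.63% lowest in all 8. For Galnt3, replicate 1 exceeded the mean of the other two by 1.25 on the log2 scale on average, from 1.02 to 1.67. The excess averaged 0.30 for Galnt6 and 0.27 for Galnt2. Galnt10 had no such order: replicate 1 was highest in 4 groups, those with E2, and lowest in the 4 groups without E2. The labels do not say what the replicate number stands for. Over the 24 libraries, which share these numbers and groups, Pearson's r was 0.867 for Galnt2 and Galnt3, 0.809 for Galnt3 and Galnt6 and 0.802 for Galnt2 and Galnt6. It was 0.775 for Galnt4 and Galnt7 and 0.479 for Galnt10 and Galnt7.

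**Figure D4:**
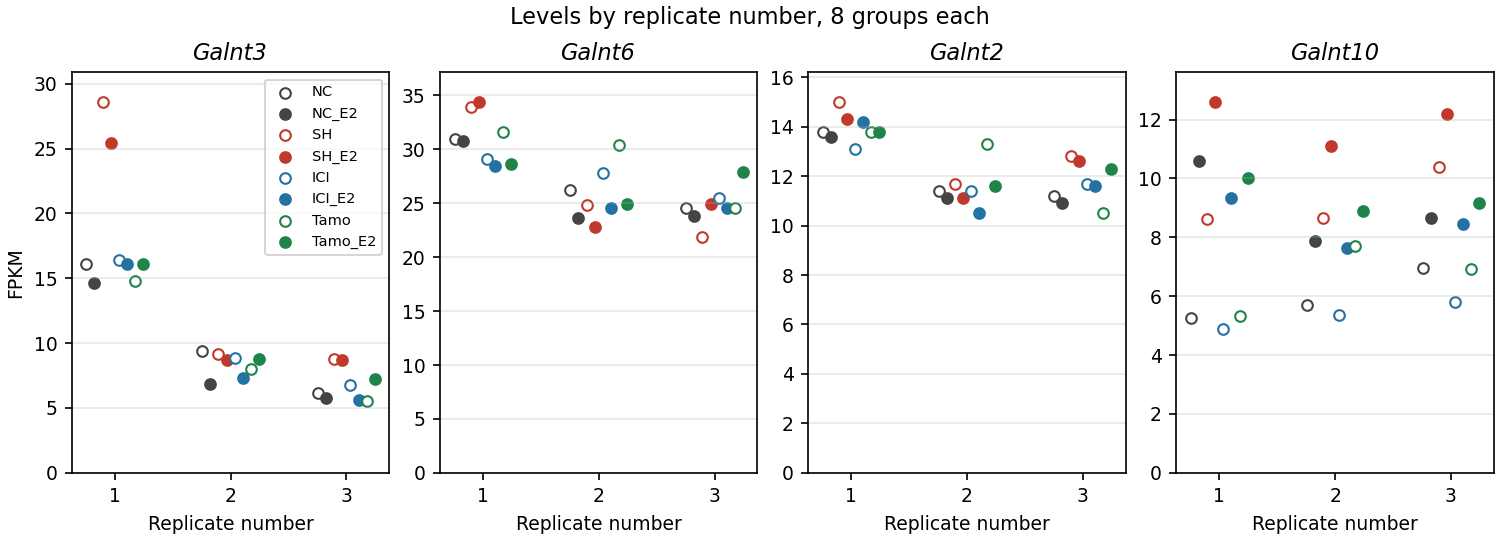
FPKM of Galnt3, Galnt6, Galnt2 and Galnt10 by replicate number, with 8 groups at each number, open without and filled with E2. Replicate 1 libraries of Galnt3 hold 14.6 to 28.6 FPKM, above every replicate 2 and 3 library, whereas Galnt10 splits by E2 most widely in replicate 1.

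Enzymes that act after the GalNAc transferases were counted in lists. With E2 over the 4 arms no gene was called in the lists for core O-glycan extension (6 tested), sialylation and sulfation (7), UDP-GalNAc supply (15), other GalNAc transferases (7), mucin-like glycoproteins (14) or Golgi structure and traffic (25). None of these genes had an unadjusted p under 0.05 there, and DESeq2 called none. The list medians lay between -0.06 and 0.02 on the log2 scale, beside 0.0 for all tested genes.

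In SH against NC over both E2 conditions, core O-glycan extension had 1 gene higher and 2 lower of 6, with a list median of -0.24 beside 0.0 over all genes. Over all tested genes 10.6% were called higher and 10.0% lower in this contrast. With so few genes per list, no result about a list is read from its count. C1galt1, which makes core 1 directly on GalNAc, rose by 0.52 ± 0.08 (adjusted p = 9.83e-05, edgeR), from 8.69 to 11.5 FPKM in the NC groups to 11.7 to 17.0 FPKM in the SH groups. Its dedicated chaperone Cosmc, encoded by C1galt1c1, fell by 0.48 ± 0.12 on the log2 scale (adjusted p = 0.00561, edgeR), from a mean of 14.8 to 11.0 FPKM. B4galt1, a galactosyltransferase that lengthens side chains, fell by 0.29 ± 0.05 (adjusted p = 0.000276, edgeR).

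Of 7 genes for sialylation and sulfation, 2 were higher and 2 lower, beside 10.6% higher and 10.0% lower over all tested genes. The sialyltransferases St3gal2 and St3gal4, which can cap the core 1 galactose or terminal galactose, fell by 0.57 ± 0.11 and 0.44 ± 0.09 on the log2 scale (adjusted p = 0.000515 and 0.00195, edgeR). Fut7, a fucosyltransferase that completes sialyl Lewis x for selectin binding, stood at 0.645 to 1.91 FPKM in the NC groups and 4.46 to 6.94 FPKM in the SH groups, a rise of 2.18 ± 0.38 (adjusted p = 0.00027, edgeR). Chst2, a GlcNAc sulfotransferase, rose by 0.72 ± 0.25 (adjusted p = 0.0484, edgeR), a call kept in 20 of 33 alternatives. The list median was 0.05.

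None of the 15 tested genes that make, activate or carry UDP-GalNAc, the sugar donor, passed the test, beside 20.7% of all tested genes. Of the 15, 3 had an unadjusted p under 0.05 by edgeR. Gfpt1, which feeds the hexosamine pathway, gave -0.29 ± 0.12 (adjusted p = 0.102, edgeR). Of 7 other GalNAc transferases 3 were lower and 0 higher, beside 10.0% lower and 10.6% higher over all tested genes. The list median was -0.20. Csgalnact2, which starts chondroitin sulfate chains, fell by 0.91 ± 0.08 (adjusted p = 2.01e-07, edgeR), and Chsy1, which extends them, fell by 0.59 ± 0.10 (adjusted p = 0.000162, edgeR). B4galnt4 fell by 0.44 ± 0.15 (adjusted p = 0.0473, edgeR), lower in 5 of 6 pairs and called in 13 of 33 alternatives.

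**Figure D5:**
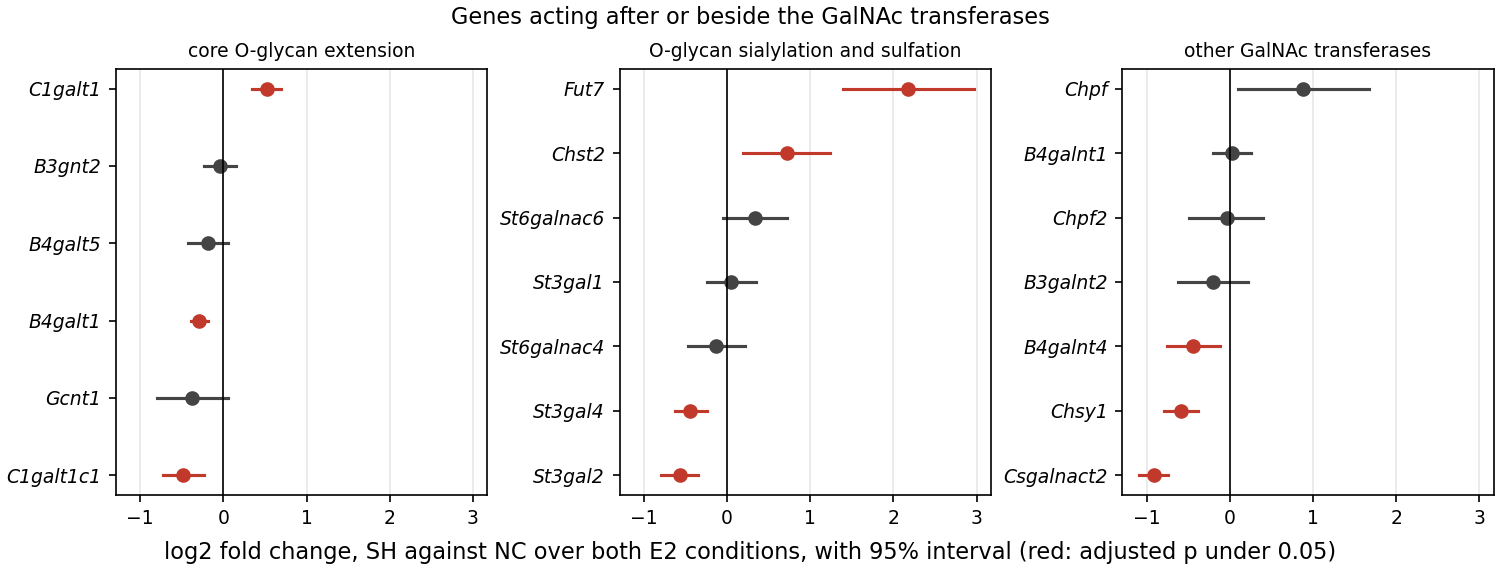
Log2 fold change with its 95% interval in SH against NC over both E2 conditions for the tested genes of 3 lists, red where the adjusted p was under 0.05. C1galt1 (0.52), Fut7 (2.18) and Chst2 (0.72) lie to the right of 0 and 7 genes in red lie to its left, among them Csgalnact2 (-0.91).

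Among mucin-like glycoproteins, potential acceptors of the family, 3 of 14 were higher and 2 lower in SH, beside 10.6% and 10.0% of all tested genes. Muc13 rose by 1.61 ± 0.43, Mcam by 0.60 ± 0.20 and Glg1 by 0.53 ± 0.17 (adjusted p = 0.0109, 0.0414 and 0.0355, edgeR). Muc20 fell by 1.97 ± 0.25 and Cd44, the hyaluronan receptor, by 1.02 ± 0.20 (adjusted p = 8.19e-06 and 0.00108, edgeR). Muc20 was low, at 0.983 to 1.47 FPKM in the NC groups and 0.171 to 0.499 FPKM in the SH groups, and reached 1 FPKM only outside SH. Muc13 was also low, at 0.204 to 0.704 FPKM in the NC groups and 0.587 to 2.54 FPKM in the SH groups. Nothing is read from the tests of Muc13 and Muc20. The calls for Mcam and Glg1 held in 24 and 23 of 33 alternatives, and on the log2(FPKM + 1) scale Muc13 gave 0.73 and Muc20 -0.76. The Golgi list gave 1 higher and 1 lower of 25, beside 20.7% called over all tested genes. The higher was Gorasp1, a stacking protein (0.39 ± 0.12, adjusted p = 0.0198, edgeR, called in 29 of 33 alternatives). The lower was Kdelr2, which returns proteins to the endoplasmic reticulum (-0.44 ± 0.09, adjusted p = 0.00115, edgeR). For the only other tested GALNT gene, Galnt14, the difference was 0.48 ± 0.21 (adjusted p = 0.123, edgeR). None of these lists had a called gene for ICI or Tamo against NC or for ICI against Tamo over both conditions by edgeR. An unadjusted p under 0.05 was found for 0 genes in ICI against NC, 2 in Tamo against NC and 4 in ICI against Tamo.

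Around Galnt10, 21 features start within 500 kb of its start and 8 were tested: Fam114a2, Mfap3, 2010001A14Rik, Sap30l, Larp1, Gm12247, Cnot8 and Gemin5. With E2 over the 4 arms none was called by edgeR or had an unadjusted p under 0.05, and their log2 differences ran from -0.36 ± 0.23 for Larp1 to 0.13 ± 0.06 for Fam114a2. In SH against NC over both conditions 1 of the 8 passed the test, beside 20.7% of all tested genes. It was Mfap3, which fell by 0.23 ± 0.07 (adjusted p = 0.0323, edgeR). The 4 features that overlap Galnt10 had 0 counts in every library. Galnt7 overlaps 8 features, the highest of them at 1.21 FPKM, and Galnt6 overlaps its antisense gene Galnt6os at 0.0791 to 0.546 FPKM. The sources used here do not say whether counting used strand.

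The 5 protein-coding genes whose pattern over the 24 libraries was most like that of Galnt10, of 9520 ranked by Pearson's r of log2(FPKM + 0.1), were Tap2 (r = 0.832, rho = 0.847), 5031439G07Rik (0.82, 0.844), M1ap (0.802, 0.843), Epb41l4b (0.795, 0.842) and Sema4a (0.785, 0.82). The 24 points share the 8 groups and 3 replicate numbers. Tap2 encodes a peptide transporter subunit of antigen presentation. It was higher with E2 in 12 of 12 pairs, as were 5031439G07Rik and Epb41l4b, M1ap in 11 and Sema4a in 10. The log2 differences in SH against NC over both conditions ran from 0.30 for Tap2 to 0.83 for Epb41l4b. The genes were chosen for following Galnt10 over these libraries, so these values describe that choice and carry no test.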

How the data were processed

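RNA of 24 P815 libraries was sequenced. Per the submitters' processing notes, cutadapt, HISAT2 and GRCm38 were used, and the sources used here give neither versions nor counting settings. The deposited table holds the authors' FPKM values and estimated counts per gene. Low counts gather at multiples of 4 (16.2% of values from 1 to 40 equal 4 and 9.11% equal 8), and 99.954% of FPKM cells at or under 0.0001 have a count of 0. Groups were read from the sample labels.

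Counts were rounded and fitted with edgeR 4.0.16 in R 4.3.3 (TMM factors 0.969 to 1.05, 1 coefficient per group over 24 libraries, quasi-likelihood test, two-sided). Genes with 1 FPKM or more in at least 3 libraries were tested, 12183 of the 28735 with any count, and p-values were adjusted by the Benjamini-Hochberg method over them. A gene was called at an adjusted p under 0.05. The fit gave 18 contrasts. Galnt10 has no p in the E2 contrasts. FPKM corrects for length, so levels of different genes are compared only in FPKM. Intervals for 95% use the fit's degrees of freedom. Alternatives were DESeq2 1.42.0, limma 3.58.1 on log2(FPKM + 1) and log2(FPKM + 0.1), upper-quartile scaling, no filter, a replicate block, counts divided by 4, the compared groups alone, each library left out, and replicates 2 and 3 alone, the last chosen after seeing the data. The code of the fit was checked on simulated counts. These had the same spread for all genes, below the common spread fitted here, and no tie between same-numbered libraries. The check therefore gives no error rate for these data. No 2 libraries of a group were duplicates (0.501 to 0.763% of counts equal).

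The members and gene lists were chosen with earlier results of these data known. The result for 1 gene is not reported here. Named are all 9 members, up to 4 called genes per list and contrast with the largest change, all tested neighbours of Galnt10 and the 5 most similar genes; Poc1b, Galnt6os, Galnt14 and Gfpt1, and the markers, were named for overlap, family or level after their values were seen. Same-numbered libraries deviated together in 34 of 36 pairs over 0.1 (correlations 0.095 to 0.472, median 0.2585). The number was taken to pair all E2 contrasts and the arm contrasts without E2 when counting higher pairs. Counts over both conditions in arm contrasts also hold the same-numbered libraries with E2. The main fit had no replicate block, so its p-values do not use this pairing, and the fit with the block is given as an alternative. The 2 pairs at or under 0.1 were replicate 2 of SH_E2 and of ICI_E2 with NC_E2.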

Additional observations from a re-analysis of the deposited data

How the results depend on the processing

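Over 33 alternatives per value, the 5 called member differences kept their sign in all 165 refits, and Galnt7 stayed called in SH against NC in each of them, as did Galnt10 over both E2 conditions. The count of called members in SH against NC without E2 was 2, went to 1 with the compared groups alone and ranged from 1 to 2 with single libraries left out. It was 3 under the replicate block, where Galnt3 joined. With E2 the count was 1, with 2 under DESeq2 and 3 under the replicate block. Over both conditions it was 2, with 4 under the replicate block, where Galnt3 (0.47, adjusted p = 0.00069) and Galnt4 joined. The block changed no other count of members. Galnt4 over both conditions was called in 12 of 33 alternatives. Counts for E2, ICI, Tamo and the differences of E2 effects were 0 under all 33. The Galnt10 E2 value over the arms ranged from 0.38 (replicates 2 and 3 alone) to 0.57. Over all genes the SH calls over both conditions went from 2517 to 4293 under the block. The E2 calls over the 4 arms went from 7 to 12 (DESeq2), 14 (block), 4 (no filter), 3 (upper quartile and counts divided by 4), 2 (limma) and 0 (replicates 2 and 3 alone). Under the block the SH calls over both conditions in the UDP-GalNAc list went from 0 to 3, in the Golgi list from 2 to 5 and in the mucin-like list from 5 to 7, and Galnt14 was called. Of 131 uncalled member values, 78 changed sign in at least 1 refit (291 of 4323 refits), so their directions are not read.

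The 3 libraries a group and the wide replicate spread limit Galnt3 most. The median SE of the E2 difference in NC was 0.212 on the log2 scale over all tested genes. Doses, vehicle controls and culture origin were not analysed here.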
